A study of Mus musculus with 1 sample.

Results

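The red cell membrane is held in shape by a skeleton of spectrin and short actin filaments that lies under the lipid bilayer. The genes examined here are *Sptb*, *Ank1*, *Epb41*, *Epb42*, *Slc4a1*, *Dmtn*, *Add2*, *Tmod1* and *Rhag*. They were chosen by symbol as 9 genes of this skeleton and of the membrane proteins that anchor it, among the 54532 genes with a value. Their mRNA was read in 1 RNA-seq library of c-kit+ BM cells from Ctrl mice, which are C57BL/6 with a wild type genotype. By the sample's labels the gate was negative for lineage markers and Sca-1, and the study enriched c-Kit+ cells on magnetic beads before sorting. The number of mice, their age and whether Ctrl mice carried *Vav-Cre* are not given in the sources used here. Cells of *Gadd45g*+/- mice with MPN were not analysed here, so there is no fold change between conditions, no replicate and no p-value in what follows. The library went against its labelled gate, with high mRNA of mature neutrophil and B cell genes beside low *Kit*. Red cell genes were high as well, and the values are given with the marker genes.

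In the mature red cell, spectrin forms a net whose corners are short actin filaments. The net is tied to the bilayer at the anion exchanger band 3 through ankyrin and protein 4.2, and at the actin junctions through protein 4.1 and adducin. Inherited loss of ankyrin, band 3, spectrin or protein 4.2 is known to cause spherocytosis, and loss of protein 4.1 elliptocytosis. The genes are switched on as erythroid progenitors mature, mostly under GATA1 and KLF1.

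The mRNA of all 9 genes was present. Each reached 1 FPKM, the minimum used for detection, as did 22.2% of all genes in the table and 46.8% of the protein-coding genes. FPKM is the number of fragments on a gene, divided by the length of its exons and scaled to the library's total. The levels ran from 23.4 FPKM for *Tmod1* to 1037 FPKM for *Slc4a1*, with a median of 75.2 FPKM. The median of the 21322 genes above 0 was 1.77 FPKM. Of the latter, 96.6% had a lower level than the median of the 9. Together the 9 genes held 0.361% of the summed FPKM and 154835 of 17113323 recovered fragments, or 0.905%. The recovered sum is 8.42% above the 15783891 fragments that the FPKM scale itself implies, of which the 9 genes would hold 0.981%. The fragments were recovered from the FPKM values and the exon lengths, and they give 95% Wilson intervals that cover counting error only. The spread between mice is unknown, so a difference between genes can be read against counting error but not against biological variation.

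*Slc4a1* stood far above the others. It encodes band 3, which exchanges chloride for bicarbonate and carries the ankyrin anchor of the skeleton, and lies on chromosome 11, 102348824 to 102366203 on the reverse strand (GRCm38). Its level was 1037 FPKM with an interval of 1030 to 1044, from 80077 recovered fragments. It stood at place 32 in the order of all genes, and *Slc4a1* made up 67.0% of the summed FPKM of the 9 genes. The next gene in order, *Epb41*, was 9.08 times lower (interval of the ratio, 8.96 to 9.20). The other 8 genes spanned a range of 4.89-fold, which was 7.52-fold with the longest coding transcripts as lengths and 11.9-fold with the transcripts of the longest coding sequence.

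**Figure D1:**
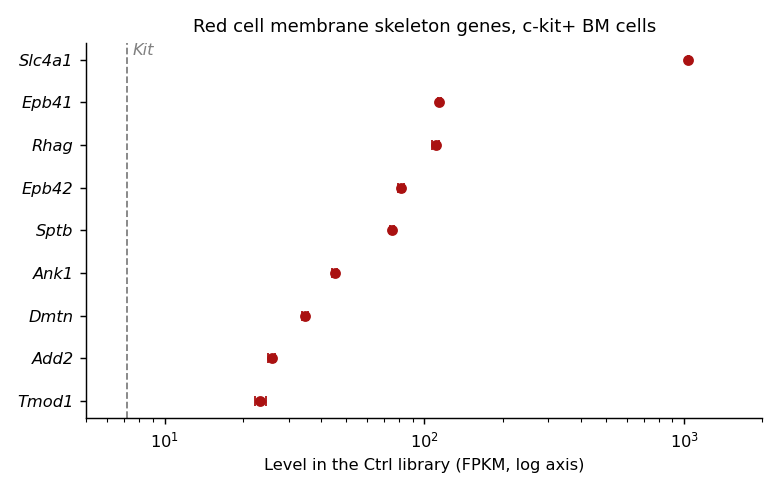
Level of the 9 red cell membrane skeleton genes in the single Ctrl library, in FPKM on a log axis. Points are the single value of each gene, bars are 95% Wilson intervals for counting error, and the dashed line is *Kit* at 7.17 FPKM; *Slc4a1* lies at 1037 FPKM and the other genes between 23.4 and 114 FPKM.

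The partners that tie band 3 to spectrin were lower. *Ank1*, whose ankyrin-1 binds band 3 and beta-spectrin, had 45.1 FPKM (44.2 to 46.0), which was 23.0 times lower than *Slc4a1*, or 15.03 times with the longest coding transcripts as lengths. It lies on chromosome 8, 22974844 to 23150497 on the forward strand, and its longest coding transcript has 44 exons. *Epb42*, whose protein 4.2 binds band 3 and ankyrin, had 81.3 FPKM (79.5 to 83.3) and lies on chromosome 2, 121017891 to 121037072 on the reverse strand. It was 12.8 times lower than *Slc4a1*. Band 3, ankyrin and protein 4.2 sit in 1 complex in the membrane, while the mRNA levels of their genes differed by more than the counting error.

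*Sptb*, the gene of erythroid beta-spectrin, had 75.2 FPKM (73.9 to 76.4) from 14411 recovered fragments. It lies on chromosome 12, 76580488 to 76710547 on the reverse strand. *Sptan1*, an alpha-spectrin of most other cells and so a different chain, had 18.6 FPKM. *Sptb* was 4.05 times *Sptan1* (3.91 to 4.19). With the longest coding transcripts as lengths this ratio was 2.84.

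The genes of the actin junction were spread over the rest of the range. *Epb41*, whose protein 4.1 fastens spectrin to actin and binds glycophorin C, had 114 FPKM (113 to 116) and lies on chromosome 4, 131923413 to 132075321 on the reverse strand. *Dmtn*, whose dematin bundles actin filaments, had 34.6 FPKM (33.7 to 35.5) and lies on chromosome 14, 70601263 to 70636048 on the reverse strand. *Add2*, whose beta-adducin caps the fast-growing end of the filaments, had 25.8 FPKM (25.0 to 26.6) and lies on chromosome 6, 86028681 to 86124409 on the forward strand. *Tmod1*, whose tropomodulin caps the other end, had 23.4 FPKM (22.2 to 24.6) and lies on chromosome 4, 46038935 to 46116032 on the forward strand. In FPKM as deposited, the genes of the capping proteins were the lowest of the 9, and *Add2* was 1.10 times *Tmod1* (1.04 to 1.17), an order that turned, to 0.771, when exon bases shared with other genes were left out of the lengths. *Rhag*, the Rh-associated glycoprotein that carries the Rh complex to the membrane and conducts ammonia, had 110 FPKM (107 to 114) and lies on chromosome 17, 40811126 to 40840754 on the forward strand. *Epb41* was 1.03 times *Rhag*, with an interval of the ratio of 1.001 to 1.069, the narrowest gap between neighbours in the order of levels as deposited. This ratio was 1.99 with the longest coding transcripts.

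The bases before the start of 6 of the 9 genes were read from RefSeq on GRCm38.p6, in 8 windows of 250 bases, since *Epb41* has 3 starts. The letters AGATAA and TGATAA, forms of the site that GATA factors bind, were searched for on both strands. They were found before *Epb42* and *Rhag*, in 2 of the 8 windows, against 16.6% of all 32851 windows of this length. The stretches are shown because GATA1 is the main known activator of erythroid genes, and the capitals mark the match. They stop at the start of the gene in GENCODE M21, which lies at 121037072 for *Epb42* and at 40811126 for *Rhag*.
*Epb42* (chr2:121037073-121037127, reverse strand): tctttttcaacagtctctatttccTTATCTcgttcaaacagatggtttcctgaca
*Rhag* (chr17:40810899-40811125, forward strand): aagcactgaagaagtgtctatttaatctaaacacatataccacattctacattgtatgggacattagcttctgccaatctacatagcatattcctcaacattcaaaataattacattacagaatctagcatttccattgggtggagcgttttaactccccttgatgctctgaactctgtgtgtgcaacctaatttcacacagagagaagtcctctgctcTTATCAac
The match before *Epb42* covers the bases 31 to 26 before that start, and the match before *Rhag* the bases 8 to 3 before it. Counted from the RefSeq start instead, the match before *Rhag* covers the bases 31 to 26 and that before *Epb42* the bases 226 to 221. The letters CCNCNCCC, a form of the site of KLF factors, were found before RefSeq starts of *Sptb*, *Epb41*, *Add2* and *Tmod1*. This was in 5 of the 8 windows, against 45.9% of all windows. The window of *Sptb* is shown with these letters, which overlap each other at the first place, in capitals.
*Sptb* (chr12:76710548-76710797, reverse strand): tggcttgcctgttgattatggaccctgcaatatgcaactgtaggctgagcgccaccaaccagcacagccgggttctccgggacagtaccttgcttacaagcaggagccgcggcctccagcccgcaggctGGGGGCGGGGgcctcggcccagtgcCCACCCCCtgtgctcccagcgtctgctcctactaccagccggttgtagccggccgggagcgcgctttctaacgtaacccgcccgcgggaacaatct
The letters CAGNTG, a form of the E-box, were found before 4 of the 6 genes, in 5 of the 8 windows, against 44.8% of all windows. These matches are letters only, and the binding of a factor was not measured in these cells.

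Each gene belongs to a family, and 40 other genes of these families were set beside the 9. Many of the 40 serve other tissues, but *Rhd* is itself a red cell gene and *Add1* encodes the partner of beta-adducin. Of the 40, 13 reached 1 FPKM and 27 did not, 9 of them being listed at 0. In FPKM as deposited, 7 of the 9 genes had the highest level of their family. The exceptions were *Add2*, below *Add1*, and *Rhag*, below *Rhd*. With the longest coding transcripts as lengths, 5 of the 9 genes were the highest of their family. The genes were chosen because they are red cell genes, so this count describes the library and was not tested.

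The separation was widest for ankyrin and the anion exchangers. *Ank2* and *Ank3*, the ankyrins of heart, brain and epithelia, had 2 and 8 recovered fragments, and *Ank1* was 3101 times *Ank3* (1573 to 7185), or 1460 times with the longest coding transcripts. *Slc4a1* was 138 times *Slc4a2* (129 to 147), the exchanger of most other cells, which had 7.54 FPKM. With the longest coding transcripts it was 75.9 times *Slc4a2*. Of the 9 other *Slc4* genes only *Slc4a2* and *Slc4a7*, the latter at 2.25 FPKM, reached 1 FPKM. *Slc4a4*, *Slc4a9* and *Slc4a10* are listed at 0. The level that 3 fragments would give is 0.0176, 0.0297 and 0.0296 FPKM for them.

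Protein 4.1, spectrin and dematin had 1 further family gene at a moderate level each. *Epb41* was 21.7 times *Epb41l2* (20.4 to 23.2), which had 5.25 FPKM. *Epb41l4b*, at 1.08 FPKM, was the only other 4.1 gene past the minimum in FPKM as deposited. With the longest coding transcripts as lengths *Epb41l3* passed it too, at 1.37 FPKM beside 1.42 FPKM for *Epb41l4b*. *Sptb* was 6.57 times *Sptbn1* (6.32 to 6.83), the beta-spectrin of most other cells, at 11.4 FPKM, or 3.997 times with the longest coding transcripts, while *Sptbn4* had 0.133 FPKM from 20 recovered fragments. *Dmtn* was 3.73 times *Ablim1* (3.54 to 3.94), an actin-binding protein with a like headpiece, at 9.26 FPKM.

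In 4 families a second gene had a level near that of the red cell gene or above it. *Add1*, the alpha-adducin that pairs with beta-adducin, had 67.2 FPKM, so that *Add2* was 0.384 of it (0.370 to 0.398), or 0.253 with the longest coding transcripts. *Add3*, the gamma-adducin, had 51.4 FPKM and is given no interval, because its recovered multiple was not whole. *Rhd*, the partner of *Rhag* in the Rh complex and itself a red cell gene, had 254 FPKM, so that *Rhag* was 0.436 of it (0.419 to 0.453). *Rhcg*, the form of kidney and other epithelia, had 0.454 FPKM, and *Rhbg* is listed at 0. Of its exon bases 61.4% are shared with other genes, and 3 fragments on the remaining bases would give 0.254 FPKM. *Tmod1* was 1.58 times *Tmod3* (1.48 to 1.69), the tropomodulin of most other cells, at 14.8 FPKM. This order turned when the longest coding transcripts served as lengths, with a ratio of 0.650 (0.609 to 0.693). *Epb42* is a relative of the transglutaminases without their activity, and it was 1.12 times *F13a1* (1.08 to 1.16), the A chain of clotting factor XIII, at 72.7 FPKM. With the longest coding transcripts this ratio turned as well, to 0.864 (0.836 to 0.892). *Tgm2* had 9.38 FPKM and *Tgm1* 1.54 FPKM, and the other 5 transglutaminase genes lay below 1 FPKM.

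**Figure D2:**
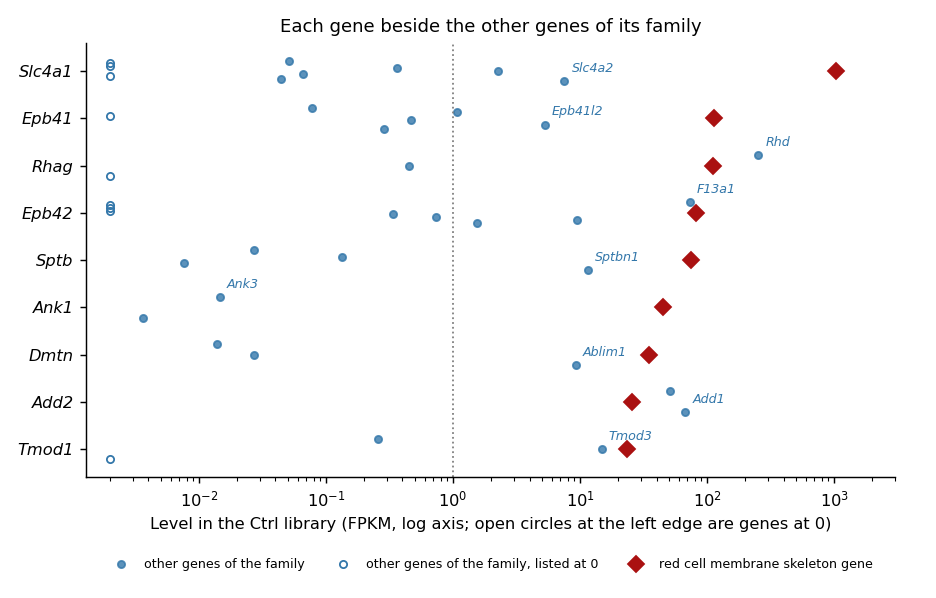
Each red cell membrane skeleton gene (red diamond) beside the other genes of its family (blue circles) in the Ctrl library, in FPKM on a log axis; open circles at the left edge are genes listed at 0, the dotted line is 1 FPKM, and the name beside a circle is the highest other gene. The diamond lies right of every circle except for *Rhag* and *Add2*, and it lies close to *F13a1* for *Epb42* and to *Tmod3* for *Tmod1*.

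The length that a fragment count is divided by moved several of these levels. The deposited FPKM divide by all bases that any annotated transcript of a gene uses, and *Epb41*, with 14 coding transcripts, has 15942 such bases against 8302 in its longest coding transcript. With that transcript as length its level was 219 rather than 114 FPKM, and with the transcript of the longest coding sequence it was 348 FPKM. *Dmtn* went from 34.6 to 62.5 FPKM and *Ank1* from 45.1 to 74.3 FPKM, while *Slc4a1*, with 1 coding transcript, went from 1037 to 1116 FPKM, and *Rhag* stayed at 110 FPKM. *Slc4a1* was the highest and *Epb41* next under each of these lengths, but *Slc4a1* was then 5.09 or 3.21 times *Epb41* instead of 9.08 times. *Rhag* and *Epb42* nearly met, at a ratio of 1.03 instead of 1.36. Which transcripts the cells used cannot be read from a value per gene.

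Exons that another gene overlaps are a further limit for *Tmod1*. Of its exon bases, 32.6% also lie in exons of *Tstd2*, on the opposite strand, which had 4.46 FPKM. Whether fragments were counted by strand is not given in the sources used here. If *Tmod1* fragments are divided by the remaining bases alone, its level is 34.7 FPKM, above *Add2* at 26.7 FPKM on the same scale. The share of overlapped exon bases was 6.37% for *Ank1*, 3.51% for *Add2* and 1.46% for *Epb41*, 1 base was overlapped for *Sptb*, and no base was overlapped for *Epb42*, *Slc4a1*, *Dmtn* and *Rhag*.

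**Figure D3:**
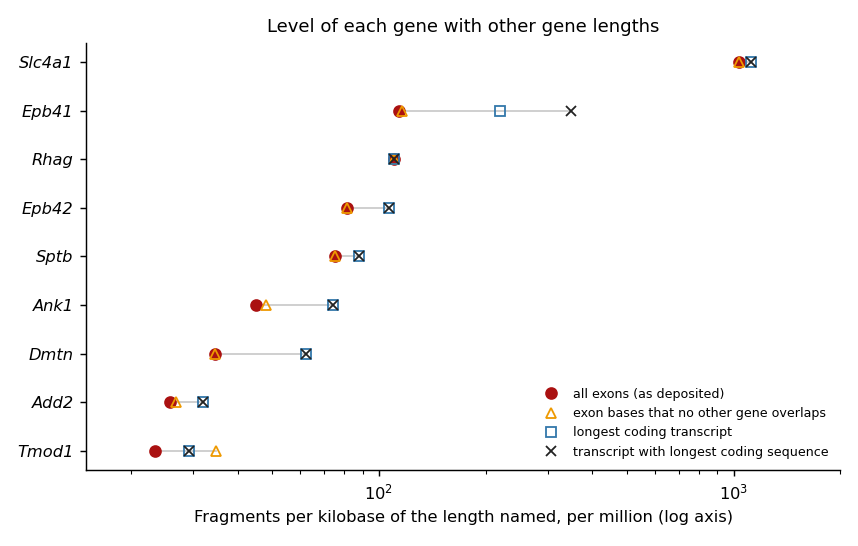
Level of each gene in the Ctrl library when its fragments are divided by 4 different lengths, on a log axis: all exons as deposited, exon bases that no other gene overlaps, the longest coding transcript, and the transcript with the longest coding sequence. *Epb41* runs from 114 to 348 and *Tmod1* from 23.4 to 34.7, whereas *Rhag* stays at 110.

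The skeleton genes were then read beside 19 partners and other red cell membrane genes, of which 18 reached 1 FPKM, with a median of 83.3 FPKM. Several proteins of the bilayer had high mRNA levels. *Aqp1*, the water channel, had 372 FPKM, *Bsg* 317 FPKM and *Stom*, which encodes stomatin, 198 FPKM. *Car2*, the carbonic anhydrase that supplies bicarbonate to band 3, had 1008 FPKM, close to *Slc4a1* at a ratio of 1.03 (1.02 to 1.04), and this ratio was 0.817 with the longest coding transcripts as lengths.

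The partners of protein 4.1 were below it. *Gypc*, which encodes glycophorin C, had 83.3 FPKM, at a ratio of *Epb41* to *Gypc* of 1.37 that was 2.46 with the longest coding transcripts, and *Mpp1*, which encodes the scaffold protein p55, 49.9 FPKM, against 114 FPKM for *Epb41*. Among blood group genes, *Kel* had 115 FPKM and *Ermap* 120 FPKM, near *Epb41* and *Rhag* in FPKM as deposited. With the longest coding transcripts *Kel* had 126 and *Ermap* 140 FPKM, against 219 FPKM for *Epb41* and 110 FPKM for *Rhag*. *Xk*, whose product pairs with Kell, had 10.3 FPKM and *Ackr1* 13.2 FPKM. *Cd47*, a member of the Rh complex that many cells carry, had 72.2 FPKM. *Slc2a1*, a glucose transporter, had 8.93 FPKM.

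Actin and tropomyosin are shared with every other cell of the marrow. *Actb* had 1180 FPKM and *Actg1* 614 FPKM, *Tpm3* had 92.4 FPKM, *Tpm4* 79.3 FPKM and *Tpm1* 11.5 FPKM. *Slc4a1* reached 0.879 of the level of *Actb* (0.869 to 0.889), or 0.678 with the longest coding transcripts as lengths. *Actb* was the highest gene of the list, and in FPKM as deposited *Slc4a1* lay between it and *Car2*. With the longest coding transcripts *Slc4a1* lay below *Car2*, at 1116 against 1366 FPKM.

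**Figure D4:**
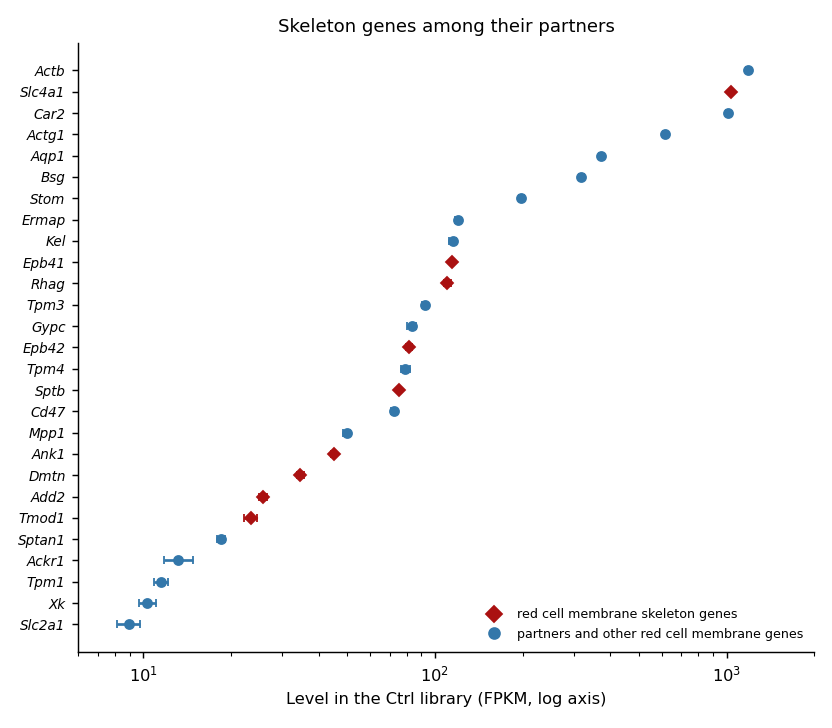
The 9 skeleton genes (red diamonds) and the 18 partners and other red cell membrane genes above 0 (blue circles) in the Ctrl library, ordered by level in FPKM on a log axis; bars are 95% Wilson intervals for counting error. *Actb* is the highest at 1180 FPKM, *Slc4a1* follows, and 5 skeleton genes from *Sptb* to *Tmod1* lie at or below 75.2 FPKM.

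The values come from a mixture of cells. All 7 erythroid marker genes were present, from *Epor* at 49.9 FPKM to *Hba-a1* at 25466 FPKM, and *Slc4a1* was 0.0407 of *Hba-a1*. *Alas2*, which makes the heme precursor in red cells, had 1189 FPKM, so that *Slc4a1* was 0.872 of it. All 6 genes chosen for late erythroid cells were present too, from *Trim58* at 34.3 FPKM to *Bpgm* at 371 FPKM, with *Hemgn* at 218 FPKM and *Trim10* at 272 FPKM. The 4 progenitor genes *Kit*, *Cd34*, *Gata2* and *Myb* ran from 5.22 to 16.5 FPKM, and each of the 9 skeleton genes was above them in FPKM as deposited. With the longest coding transcripts as lengths *Myb* had 39.8 FPKM, above *Add2* at 32.0 FPKM and *Tmod1* at 29.2 FPKM. *Kit*, whose protein was the marker of the sort, had 7.17 FPKM (6.74 to 7.62). Markers of mature neutrophils and B cells, which a gate negative for lineage markers should remove, were present as well. With *Kit* this low they go against the label of the sort. The library held 6 of 6 neutrophil genes summing to 50191 FPKM and 4 of 4 B cell genes to 348 FPKM. It also held 5 of 5 macrophage genes summing to 166 FPKM. For megakaryocyte genes this was 4 of 5, at 84.9 FPKM, and for T cell genes 3 of 3, at 16.2 FPKM. In FPKM as deposited, 5 of 5 macrophage, 4 of 5 megakaryocyte and 1 of 3 T cell genes lay above *Kit*, beside 3 of 4 B cell genes. Whether the macrophage, megakaryocyte and T cell genes go against the label was not tested. *S100a9*, a neutrophil gene, had 26677 FPKM and *Cd79a*, a B cell gene, 173 FPKM. *Gp1bb* was the only marker listed at 0. The part of these cells in the levels of the shared genes *Add1*, *Add3*, *Tmod3* and *F13a1* was not tested. More cells of the red lineage and more RNA of these genes in each cell cannot be told apart in a bulk library.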

How the data were processed

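Total RNA of sorted c-kit+ BM cells of Ctrl mice was extracted with TRIzol and sequenced on an Illumina HiSeq, as 1 library. The authors deposited FPKM, 1 value for each of 54532 Ensembl genes. The submitters' processing notes name HISAT2 2.0.5, featureCounts 1.5.0-p3 and mm10. The annotation and the strand setting are not given in the sources used here.

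GENCODE M21 (GRCm38) supplied names, lengths and coordinates and lacked 37 of the identifiers. FPKM times exon length was a whole multiple of a common step, within 0.01, for 96.4% of 21313 genes above 0, and for all 9 genes of the set. These multiples were read as fragments, 17113323 in all, against 15783891 implied by the step. What makes up the difference was not tested. The recovery was also run on simulated fragments. These sum to the total that their step implies, so that run cannot bear on the difference. Levels have 95% Wilson intervals, ratios have exact conditional (Clopper-Pearson) intervals, and genes at 0 are given the level of 3 fragments. PCR copies are not independent, so intervals cover counting error only.

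No test was made, since there is 1 library. All genes of the family, partner and marker lists could be named, and for each gene of the set the highest other gene of its family was. A likeness of pattern over samples cannot be measured. The genes and lists were chosen with earlier results of these data known, and some genes of the lists are not reported here. Alternatives were other detection minimums, totals, backgrounds and lengths. Promoter bases are from RefSeq (GRCm38.p6), matched by symbol for 6 of the 9 genes. Scripts ran in Python 3.11.15 with scipy 1.17.1, pandas 2.3.3 and numpy 2.4.6, and figures were drawn with matplotlib 3.10.9.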

Additional observations from a re-analysis of the deposited data

How the results depend on the processing

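No paired analysis was possible because there is 1 library and no replicate. All 9 genes also lay above minimums of 0.1 FPKM, 10 FPKM and 10 recovered fragments. The lowest of them, *Tmod1*, had 23.4 FPKM from 1455 recovered fragments. The share of all genes past these other minimums was not worked out, so this count is not read as a result about the 9 genes. Their median, 75.2 FPKM, was 82.0 FPKM with a total that omits the 10 most abundant genes, 76.6 FPKM without mitochondrial genes and 87.8 FPKM with the longest coding transcripts as lengths. Their share, 0.361% of the summed FPKM, was 0.487% without the 10 most abundant genes and 0.905% of recovered fragments. The share of genes below their median, 96.6%, was 94.1% among genes at 1 FPKM or more and 95.8% among protein-coding genes above 0.

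With the longest coding transcript as length, the levels were 87.8 FPKM for *Sptb*, 74.3 for *Ank1*, 219 for *Epb41*, 107 for *Epb42*, 1116 for *Slc4a1*, 62.5 for *Dmtn*, 32.0 for *Add2* and 29.2 for *Tmod1*, while *Rhag* did not move. The transcript with the longest coding sequence, chosen after seeing the data, changed only *Epb41* further, to 348 FPKM. Dividing by exon bases that no other gene overlaps, also chosen after seeing the data, gave 48.2 FPKM for *Ank1*, 116 for *Epb41*, 26.7 for *Add2* and 34.7 for *Tmod1*.

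The ratios to the highest other family gene are given for the longest coding transcripts, for recovered fragments and for the transcripts with the longest coding sequence, in this order. They were 3.997, 4.56 and 3.71 for *Sptb*, 1460, 1204 and 1262 for *Ank1*, 15.5, 29.3 and 24.5 for *Epb41*, 75.9, 80.9 and 74.4 for *Slc4a1*, and 4.04, 3.06 and 4.04 for *Dmtn*. They were 0.253, 0.455 and 0.209 for *Add2*, and 0.414, 0.639 and 0.414 for *Rhag*. The ratio of *Epb42* to *F13a1* turned from 1.12 to 0.864, 0.899 and 0.864, and that of *Tmod1* to *Tmod3* from 1.58 to 0.650, 0.560 and 0.650. *Tmod3* has 11151 exon bases in all, so the length chosen for it sets this order. Without overlapped bases the ratio was 2.35 for *Tmod1* and 119 for *Slc4a1*, and the other 7 ratios stayed within their intervals.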

Other observations

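A list of 18 transporters, channels and lipid-moving proteins of the red cell membrane was added after the values had been seen. Of these, 16 reached 1 FPKM in the values as deposited, with a median of 10.5 FPKM against 75.2 FPKM for the 9 skeleton genes. In FPKM as deposited, the highest were *Slc16a1*, a lactate transporter, at 56.5 FPKM and *Slc43a1*, an amino acid transporter, at 50.4 FPKM. This order turned with the longest coding transcripts as lengths, to 93.3 FPKM for *Slc43a1*, 76.3 for *Kcnn4* and 56.5 for *Slc16a1*. *Kcnn4*, the calcium-activated potassium channel known as the Gardos channel, had 29.7 FPKM, and *Piezo1*, the mechanosensitive channel, 10.8 FPKM. *Slc14a1*, the urea transporter of the Kidd blood group, had 28.3 FPKM. Of the calcium pumps, *Atp2b4* had 20.1 FPKM (19.5 to 20.7) and *Atp2b1* 4.64 FPKM (4.37 to 4.92). Of the potassium-chloride cotransporters, *Slc12a4* had 4.19 FPKM and *Slc12a7* 1.59 FPKM. *Abcb6*, at 0.668 FPKM, and *Aqp3*, at 0.416 FPKM, were below the minimum in FPKM as deposited. Of the exon bases of *Abcb6*, 55.2% are shared with other genes. If its fragments are divided by the remaining bases alone, its level is 1.489 FPKM, past the minimum. With the longest coding transcript as length *Abcb6* passed it too, at 1.196 FPKM. *Aqp3* stayed below the minimum under both of these lengths.

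*Icam4*, an adhesion protein of erythroid cells, was the only gene of the 19 partners listed at 0. All of its 1110 exon bases also lie in exons of the antisense gene *Gm47079*, which had 0.273 FPKM. *Gp1bb*, the megakaryocyte marker listed at 0, shares 91.1% of its exon bases with *Sept5* on the same strand. Of 176 protein-coding genes whose exon bases are all overlapped by other genes, 167 are listed at 0, or 94.9%, against 37.9% of the 15460 with no overlapped base and 17.3% of the 6359 with some. Of the 98 with 90% or more of their exon bases overlapped, but not all, 75 are listed at 0, or 76.5%. These 98 are among the 6359, and *Gp1bb* is one of them, at 92.9%. The 0 of *Icam4* and *Gp1bb* is therefore not read as absence of their mRNA. How fragments on shared exons were treated is not given in the sources used here.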
